A study of Arabidopsis thaliana with 12 samples.

Results

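The genes described here are the tau and phi glutathione transferases of Arabidopsis thaliana, the plant-specific classes of this enzyme family. They were chosen by locus code: 28 tau genes (GSTU1 to GSTU28) and 12 phi genes (GSTF2 to GSTF11, GSTF13 and GSTF14). All 40 loci had a probe on the array, with 1 probe each, and 39 of them were bright enough to be tested among 21357 genes tested. The untested gene, GSTF5 (AT1G02940), was well above background on replicate 3 of 35S:WIND1 callus and on replicates 2 and 3 of T87 callus, and on no other array.

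Glutathione transferases join the tripeptide glutathione to electrophilic compounds, such as herbicides, oxidized lipids and products of secondary metabolism, and the conjugates are then moved into the vacuole by ABC transporters. Tau and phi enzymes carry a catalytic serine, many of their genes lie in tandem groups on the chromosomes, and transcripts of many rise with auxins, herbicide safeners, oxidative stress and wounding. Some members bind ligands or act in glucosinolate and camalexin synthesis, so the classes cover more than detoxification.

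Transcripts were measured as total RNA on 12 one-colour arrays, 3 biological replicates (n = 3, separate plants or separate calli) for each of 4 groups, all in the Col-0 background on solid MS medium. The seedlings were 14 days old, wild type and untreated. The 35S:WIND1 callus came from plants that carry the transcription factor gene WIND1 under the constitutive 35S promoter, formed callus-like tissue and got no further treatment. The T87 callus, wild type by its label and grown from a long-kept cell line, was cultured with 500 nM of the synthetic auxin NAA, and the wild-type 2,4-D-induced callus (its arrays are named 2,4-D arrays) was kept with 500 µg/L of the synthetic auxin 2,4-D. A level below is the log2 signal of a gene minus the log2 of the 75th percentile of its array, so 0 is the signal of that percentile, and each gene is compared with itself across groups and never with another gene's probe. A change was called, and is named a rise or a fall, where limma's adjusted p (Benjamini-Hochberg over all genes tested) was under 0.05 and the groups differed at least 2-fold.

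As a check of the labels, WIND1 itself exceeded the seedlings 4.97-fold in 35S:WIND1 callus (adjusted p = 1.52e-05), 3.04-fold in 2,4-D-induced callus and 2.01-fold in T87 callus. Correlations between arrays of a group, across genes, were 0.986 to 0.991 in seedlings and lowest in 35S:WIND1 callus at 0.945 to 0.956. Each group always held the same position on a slide, so position and group cannot be told apart. These are bulk samples, in which fewer cells of a type and less RNA per cell cannot be told apart. The tissues also differed in their marker transcripts: 7 mesophyll markers summed to log2 levels of 9.23 to 9.61 on seedling arrays, 7.10 to 7.66 on 35S:WIND1 arrays, 7.89 to 8.08 on T87 arrays and 2.91 to 4.41 on 2,4-D arrays. The sum of 6 root markers was 5.18 to 5.45, 4.36 to 5.12, 0.48 to 0.54 and 4.54 to 5.15 in the same order. The sum of 5 epidermis markers was 4.99 to 5.08, 3.65 to 4.46, -0.28 to 0.01 and 1.88 to 2.57, with PDF1 not above background on any T87 array. The sum of 5 callus markers, WIND1 among them, was 1.296 to 1.42, 3.21 to 3.91, 2.32 to 2.78 and 3.04 to 3.44, higher in each callus than in seedlings. Of its members, LBD17, LBD18 and LBD29 were above background on no array of 35S:WIND1 or T87 callus and on all 3 arrays of 2,4-D-induced callus. The 5 members did not all follow the sum: against seedlings, 1 (WIND1) was called higher and 2 lower in 35S:WIND1 callus. T87 callus had 3 called higher and 2 lower, and 2,4-D-induced callus 4 higher and 0 lower. At least 1 of the 3 higher calls in T87 callus was of a gene above background on no T87 array. The part of these marker differences in the results below was not tested.

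Against seedlings, transferase genes fell more often than they rose in each kind of callus, as did all genes tested. In 35S:WIND1 callus 7 of the 39 rose, where 12.5% of all genes tested were called higher, and 14 fell, where 19.6% were called lower. T87 callus had 5 rises (all genes 20.9%) and 23 falls (all genes 26.5%). In 2,4-D-induced callus 9 rose (all genes 18.6%) and 18 fell (all genes 24.2%). As shares, 35.9%, 59.0% and 46.2% of the 39 genes fell in 35S:WIND1, T87 and 2,4-D-induced callus, and 17.9%, 12.8% and 23.1% rose. The shares of rises were thus also above those of all genes in 35S:WIND1 and 2,4-D-induced callus, and below in T87 callus. The median log2 change of the 39 was -0.31, -2.30 and -0.70 in that order, beside 0.07, -0.0034 and 0.15 for all genes tested. The 3 comparisons share the seedling arrays. Scaling each array to its median instead, which moved the median of all genes to 0.50, 0.86 and 0.90, gave 10 rises and 11 falls, 9 and 20, and 13 and 13. That scaling called 8217, 13555 and 13446 of the 21357 genes tested, in either direction. The authors' deposited values gave 11 rises and 11 falls, 5 and 23, and 9 and 18. They called 8551, 10035 and 8626 of 21361 genes in either direction. GSTU14, GSTU21 and GSTF14 entered the tests through the seedlings alone and so could hardly rise. GSTU2, GSTU26 and GSTF4 entered without T87 callus, and GSTU20, GSTF11 and GSTF13 without T87 or 2,4-D-induced callus. These could hardly rise in a callus they entered without. GSTU3 and GSTU11 entered through the calli and GSTU15 through T87 and 2,4-D-induced callus, and these could hardly fall against the seedlings. The other 27 genes were above background on all 12 arrays. With tests of such genes alone, 5 of the 27 rose and 7 fell in 35S:WIND1 callus. In T87 callus 2 rose and 14 fell, and in 2,4-D-induced callus 5 rose and 11 fell. Of all 16560 genes so filtered, 4147, 6352 and 5988 were called in either direction in 35S:WIND1, T87 and 2,4-D-induced callus.

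The called rises were nearly all in tau genes, which are 28 of the 39 tested. Of the 28 tau genes, 7 rose and 10 fell in 35S:WIND1 callus, against 5 and 15 in T87 callus and 8 and 13 in 2,4-D-induced callus. Of the 11 phi genes tested, 4 fell and the other 7 were not called in 35S:WIND1 callus. In T87 callus 8 phi genes fell and 3 were not called, and in 2,4-D-induced callus 1 rose (GSTF3), 5 fell and 5 were not called. As shares, 25.0%, 17.9% and 28.6% of tau genes rose in 35S:WIND1, T87 and 2,4-D-induced callus, where 12.5%, 20.9% and 18.6% of all genes rose. In that order 0%, 0% and 9.1% of phi genes rose. Falls were 35.7%, 53.6% and 46.4% of tau and 36.4%, 72.7% and 45.5% of phi genes (all genes 19.6%, 26.5% and 24.2%). Median scaling also called GSTF10 higher in 35S:WIND1 callus, GSTF3 in T87 callus, and GSTF2 and GSTF7 in 2,4-D-induced callus. The difference between the classes was not tested.

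**Figure D1:**
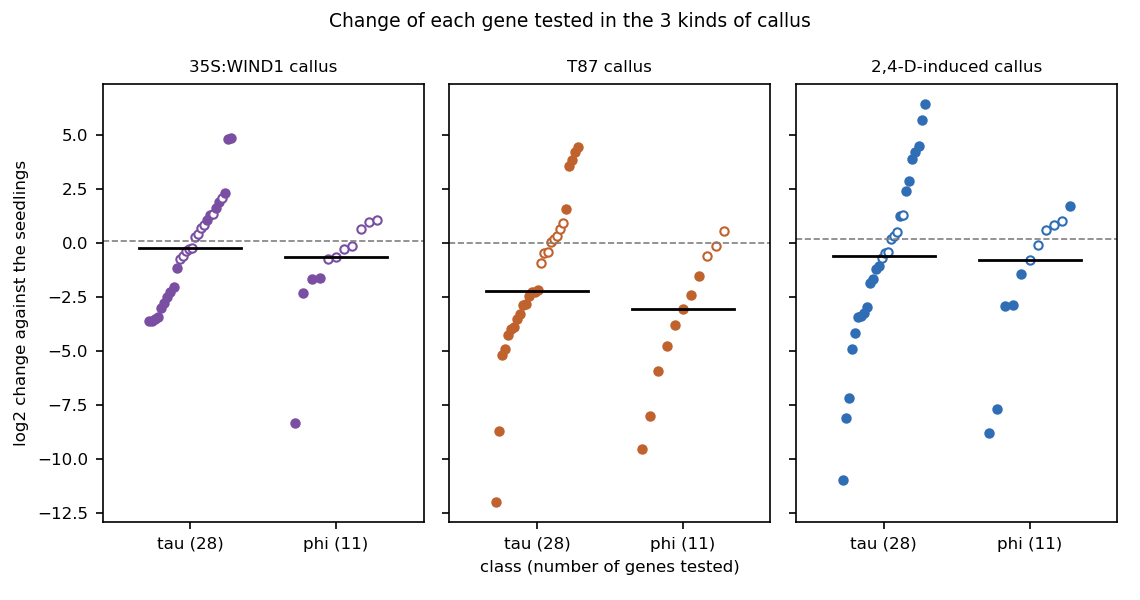
Log2 change of each gene tested against the seedlings (vertical axis), for the 28 tau and 11 phi genes in each kind of callus. Filled points are called changes, open points are not called, thick bars are class medians and the dashed line is the median of all genes tested; the phi class has 1 filled point above 0, in 2,4-D-induced callus.

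**Figure D2:**
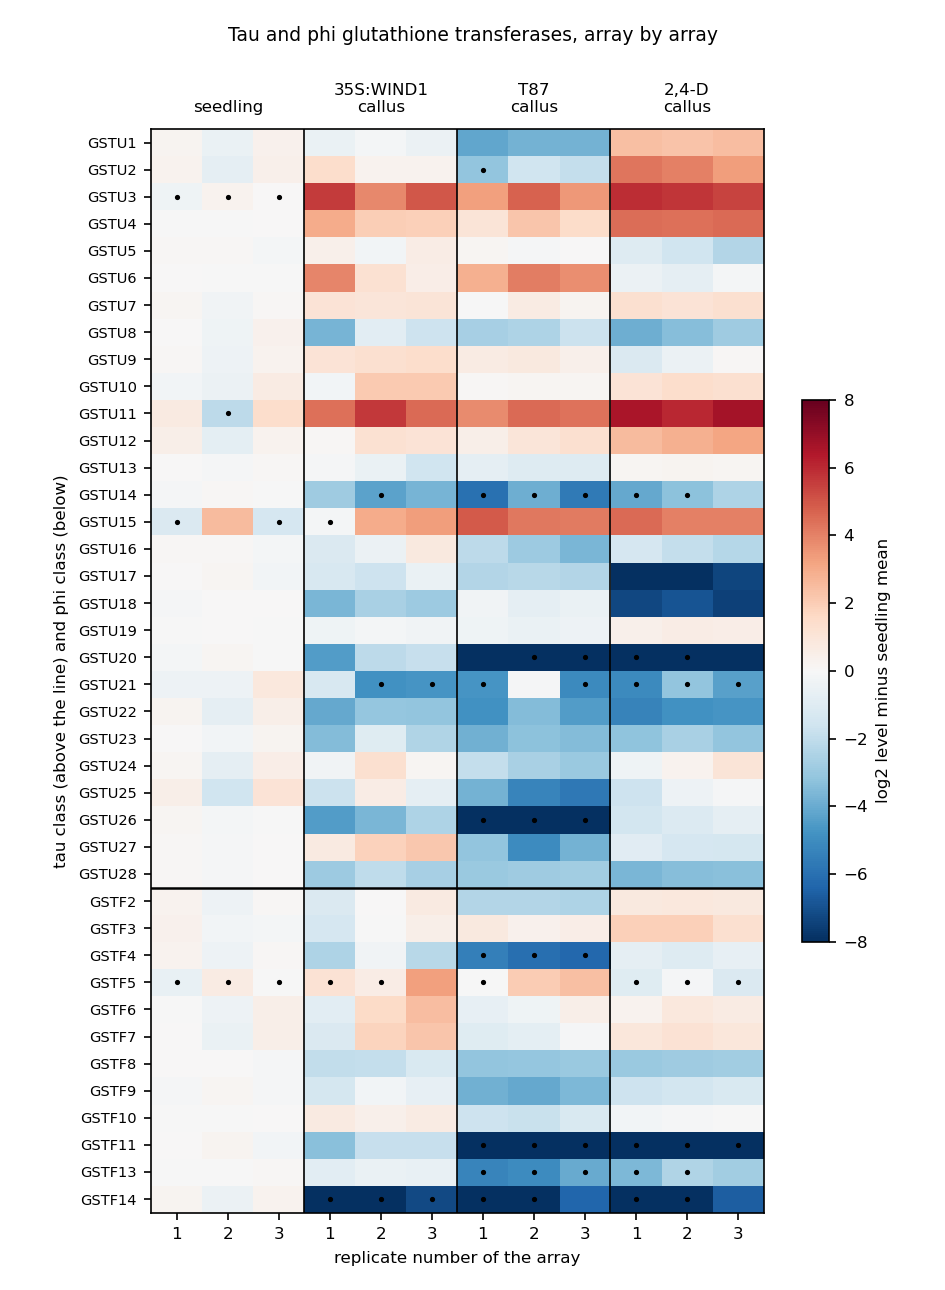
Log2 level of each of the 40 genes on each of the 12 arrays minus its mean over the 3 seedling arrays (colour, held at -8 and 8). Dots mark signals not well above background; GSTU3, GSTU4 and GSTU11 are red in all 3 kinds of callus, and GSTU20, GSTU26, GSTF11 and GSTF14 are deep blue on all 3 T87 arrays.

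GSTU1 to GSTU7 (AT2G29490, AT2G29480, AT2G29470, AT2G29460, AT2G29450, AT2G29440 and AT2G29420) lie together on chromosome 2 with 3 other genes among them, and this group held most of the rises. Of the 7, 4 rose and 3 were not called in 35S:WIND1 callus. In T87 callus 3 rose and 2 fell, and in 2,4-D-induced callus 5 rose and 1 fell. As shares of the 7, 57.1%, 42.9% and 71.4% rose, where 12.5%, 20.9% and 18.6% of all genes rose. Falls were 0%, 28.6% and 14.3%, where 19.6%, 26.5% and 24.2% of all genes fell. Direct neighbours could move in opposite ways within the same callus.

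GSTU3 was not well above background on any seedling array, at log2 levels of -8.35, -7.69 and -7.94, and was above background on every callus array. Its levels were -2.42, -4.12 and -3.02 on the 35S:WIND1 arrays, -4.71, -3.26 and -4.55 on the T87 arrays and -2.10, -2.24 and -2.58 on the 2,4-D arrays. All 9 callus arrays thus lay above the 3 seedling arrays. GSTU3 was at least 9.20-fold higher in 35S:WIND1 callus (adjusted p = 2.24e-05), at least 4.65-fold higher in T87 callus (4.44e-05) and at least 16.95-fold higher in 2,4-D-induced callus (3.3e-06). A planned normexp background correction, whose fit some spots with outlying local background distorted, ended these 3 calls and others, and a repeat without those spots kept them.

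GSTU4 was measured on every array. Seedling levels were -2.66, -2.72 and -2.59, and those in 2,4-D-induced callus were 1.79, 1.75 and 1.89. They were 0.32, -0.70 and -0.77 on the 35S:WIND1 arrays and -1.60, -0.46 and -1.22 on the T87 arrays. The seedlings were lowest and 2,4-D-induced callus highest, with no overlap of either with another group. GSTU4 rose 22.1-fold in 2,4-D-induced callus (log2 change 4.47, SE 0.32, adjusted p = 1.42e-06), 4.84-fold in 35S:WIND1 callus (adjusted p = 0.000253) and 2.95-fold in T87 callus (adjusted p = 0.00153).

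GSTU1 and GSTU2 split the auxin-grown calli. GSTU1 is known to be induced by safeners and other xenobiotics. Its levels were 0.23, -0.51 and 0.37 in seedlings, -0.51, -0.10 and -0.47 on the 35S:WIND1 arrays, -4.13, -3.76 and -3.78 on the T87 arrays and 2.43, 2.32 and 2.48 on the 2,4-D arrays. Seedlings and 35S:WIND1 callus overlapped, T87 callus lay below both and 2,4-D-induced callus above both. GSTU1 rose 5.22-fold in 2,4-D-induced callus (log2 change 2.39, SE 0.22, adjusted p = 8.63e-06) and fell by 3.92 on the log2 scale in T87 callus (SE 0.22, adjusted p = 2.93e-07). GSTU2 had levels of -3.07, -4.12 and -2.96 in seedlings, -1.99, -3.08 and -3.09 on the 35S:WIND1 arrays, and 0.89, 0.63 and -0.04 on the 2,4-D arrays. In T87 callus it was above background in replicates 2 and 3, at -4.97 and -5.29, and not in replicate 1. GSTU2 rose 14.6-fold in 2,4-D-induced callus (adjusted p = 6.71e-05) and fell by 2.22 on the log2 scale in T87 callus (adjusted p = 0.00238). T87 and 2,4-D-induced callus did not overlap for either gene, and T87 callus was lower by a log2 change of -6.30 for GSTU1 and -6.09 for GSTU2 (adjusted p = 2.83e-08 and 3.32e-06).

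GSTU5, GSTU6 and GSTU7 had other patterns again. GSTU5 fell in 2,4-D-induced callus, to 2.18, 1.62 and 0.92 from 3.31, 3.33 and 3.09 in seedlings (log2 change -1.67, SE 0.30, adjusted p = 0.00067), but by -0.93 and under 2-fold with median scaling. It was not called in 35S:WIND1 callus (3.63, 3.03 and 3.84) or T87 callus (3.37, 3.17 and 3.30). GSTU6 rose 11.8-fold in T87 callus, to 1.00, 2.25 and 1.86 from -1.81, -1.89 and -1.88 in seedlings (adjusted p = 0.00115), and stood at -2.33, -2.59 and -1.99 on the 2,4-D arrays with no call. The 35S:WIND1 arrays of GSTU6 were spread widely, at 2.02, -0.62 and -1.30. Its rise there (log2 change 1.89, adjusted p = 0.0437) rested on replicate 1: without it the change was 0.89 (adjusted p = 0.0581). That call also ended with the replicate number as a block (adjusted p = 0.0658) and without any 1 of the 3 seedling arrays, T87 callus replicates 2 and 3 or the 3 arrays of 2,4-D-induced callus (adjusted p 0.0519 to 0.0951). GSTU7 rose 2.03-fold in 35S:WIND1 callus and 2.34-fold in 2,4-D-induced callus (adjusted p = 0.00105 and 0.000192). Its levels were 0.82, 0.35 and 0.76 in seedlings, 1.72, 1.61 and 1.68 on the 35S:WIND1 arrays, 0.64, 1.31 and 0.89 on the T87 arrays and 1.92, 1.75 and 1.96 on the 2,4-D arrays. In T87 callus it was called higher with median scaling alone (log2 change 1.17, against 0.30). The rise in 35S:WIND1 callus came under 2-fold without seedling replicate 2 (log2 change 0.88) or without 35S:WIND1 callus replicate 1 (0.997).

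GSTU19 to GSTU23 (AT1G78380, AT1G78370, AT1G78360, AT1G78340 and AT1G78320) adjoin each other on chromosome 1 with 0 other genes between them. Of these 5, 4 fell in each kind of callus and GSTU19 was not called in any. The falls were 80% of the group each time, where 19.6%, 26.5% and 24.2% of all genes fell in 35S:WIND1, T87 and 2,4-D-induced callus. GSTU19, a safener-induced enzyme with high activity towards model substrates, was called in no callus against the seedlings. It stood at 5.81, 5.86 and 5.76 in seedlings, 5.50, 5.68 and 5.52 on the 35S:WIND1 arrays, 5.48, 5.28 and 5.38 on the T87 arrays and 6.20, 6.38 and 6.34 on the 2,4-D arrays. The highest group, 2,4-D-induced callus, lay above the other arrays by a log2 change of 0.50 against seedlings (SE 0.10, adjusted p = 0.00175), which is below the fold used for a call. With quantile normalization and median scaling this change was 1.16 and 1.24, and GSTU19 was called higher there (adjusted p = 4.31e-05 and 6.36e-06).

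Its neighbour GSTU20 was bright in seedlings and near or below the background in the auxin-grown calli. GSTU20 protein binds the jasmonate-conjugating enzyme JAR1, also called FIN219, and the gene is co-expressed with aliphatic glucosinolate synthesis. Seedling levels were 4.93, 5.27 and 5.05. On the 35S:WIND1 arrays they were 0.64, 2.99 and 3.23. In T87 callus GSTU20 was above background in replicate 1, at -5.12, and in 2,4-D-induced callus in replicate 3, at -5.34. Every callus array lay below every seedling array, and the arrays of T87 and 2,4-D-induced callus lay below those of 35S:WIND1 callus. The fitted log2 change was -12.01 in T87 callus (SE 0.89, adjusted p = 1.5e-06) and -11.00 in 2,4-D-induced callus (adjusted p = 3.1e-06), each with 1 of 3 arrays above background. With the dim arrays at the lowest signal well above background the falls were 2514-fold and 2053-fold. Leaving out T87 callus replicate 1 or 3 moved the first value to -12.92 or -11.12. In 35S:WIND1 callus the fall was 6.95-fold (log2 change -2.80, adjusted p = 0.0232), and it missed the threshold without 35S:WIND1 callus replicate 1 (log2 change -1.97, adjusted p = 0.0777) or without seedling replicate 1, 2 or 3 (adjusted p = 0.0518, 0.0638 and 0.0544).

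GSTU22 and GSTU23 were above background on all arrays and fell in each callus. GSTU22 went from 1.45, 0.51 and 1.69 in seedlings to -2.88, -1.90 and -1.94 on the 35S:WIND1 arrays, -3.61, -2.28 and -3.26 on the T87 arrays and -4.12, -3.60 and -3.47 on the 2,4-D arrays. These are falls of 10.98-fold, 19.3-fold and 30.8-fold (adjusted p = 0.000103, 1.11e-05 and 4.73e-06). GSTU23 fell 4.86-fold, 11.7-fold and 7.95-fold in the same order (adjusted p = 0.00401, 0.00014 and 0.000493). The change of GSTU23 in 35S:WIND1 callus was -2.28, and -1.69 without its replicate 1 or -2.95 without its replicate 2. GSTU21 was dim: it was above background on the 3 seedling arrays, at -4.33, -4.36 and -3.12, in 35S:WIND1 callus replicate 1, at -5.19, in T87 callus replicate 2, at -4.05, and on no array of 2,4-D-induced callus. It was at least 5.75-fold lower in 2,4-D-induced callus (adjusted p = 0.0186), a call that ended without seedling replicate 3 or without 2,4-D-induced callus replicate 1 (adjusted p = 0.0607 and 0.0608). Its calls in 35S:WIND1 and T87 callus had adjusted p = 0.0443 and 0.0488 and did not hold with the replicate block (0.0648 and 0.0692). The first also ended without any seedling array, 35S:WIND1 callus replicate 2 or 3, or any array of 2,4-D-induced callus (0.0540 to 0.133). The second ended without those arrays or T87 callus replicate 1 or 3 (0.0536 to 0.167). T87 callus replicate 2 lay above 2 of the 3 seedling arrays, and without it the change was -4.92 in place of -3.32. With the dim arrays at the lowest signal well above background, the falls in 35S:WIND1 and T87 callus were 4.60-fold and 3.51-fold.

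**Figure D3:**
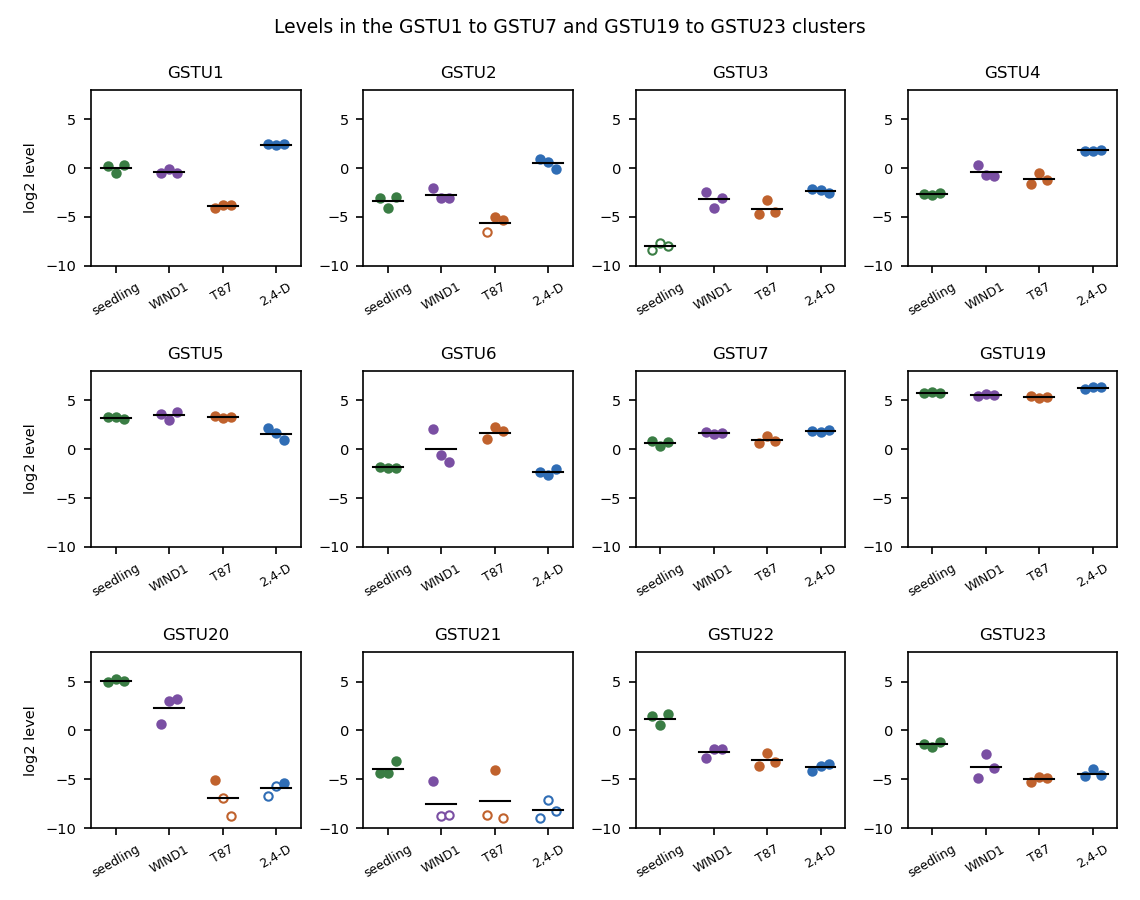
Log2 level (vertical axis, relative to the 75th percentile of each array) of the GSTU1 to GSTU7 and GSTU19 to GSTU23 genes in the 4 groups. Each point is an array, the bar is the mean of 3 arrays and open points are not well above background; GSTU1 and GSTU2 are lowest in T87 callus and highest in 2,4-D-induced callus, and GSTU19 stays between 5.28 and 6.38.

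The pair GSTU11 (AT1G69930) and GSTU12 (AT1G69920) on chromosome 1, with 0 genes between, rose most in 2,4-D-induced callus. GSTU11 levels were -4.11, -6.97 and -3.46 in seedlings, the second of these not above background. They were -0.47, 0.83 and -0.34 on the 35S:WIND1 arrays, -1.09, -0.30 and -0.51 on the T87 arrays and 1.69, 1.19 and 1.83 on the 2,4-D arrays. No callus array overlapped the seedlings, and the 3 arrays of 2,4-D-induced callus were the highest. GSTU11 rose 29.0-fold, 18.6-fold and 85.6-fold in 35S:WIND1, T87 and 2,4-D-induced callus (log2 changes 4.86, 4.21 and 6.42, SE 0.77, adjusted p = 0.000498, 0.000679 and 4.37e-05). Without the dim seedling replicate 2 the log2 changes were 3.79, 3.15 and 5.36, and without seedling replicate 3 they were 5.55, 4.91 and 7.11. GSTU12, a tau enzyme found in the nucleus, rose 7.16-fold in 2,4-D-induced callus (adjusted p = 0.000122), where it stood at 0.08, 0.40 and 0.71 against -1.95, -3.21 and -2.17 in seedlings. In 35S:WIND1 callus (-2.34, -1.23 and -1.37) and T87 callus (-2.00, -1.49 and -1.17) its levels were not called, with log2 changes of 0.80 and 0.89. It was called higher in both with median scaling (1.22 and 1.76) and quantile normalization (1.09 and 1.299), in the former also in the deposited values (1.29) and without 35S:WIND1 callus replicate 1 (1.14), and in the latter also without T87 callus replicate 1 (1.11) or seedling replicate 1 (1.14).

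GSTU13 (AT1G27130) and GSTU14 (AT1G27140), with 1 other gene between them on chromosome 1, differed. GSTU13, which takes part in indole glucosinolate metabolism during immunity, was called in none of the callus comparisons with seedlings, where its log2 changes were -0.74, -0.94 and 0.17. It was called lower in 35S:WIND1 callus without its replicate 1 (-1.07), and in T87 callus without T87 callus replicate 1 (-1.05) or seedling replicate 2 (-1.003). GSTU14 fell in each. Its seedling levels were -2.46, -2.30 and -2.43. It was above background in 35S:WIND1 callus replicates 1 and 3, at -5.22 and -6.14, in 2,4-D-induced callus replicate 3, at -4.85, and on no T87 array. GSTU14 was 12.3-fold lower in 35S:WIND1 callus (adjusted p = 0.000549), at least 17.3-fold lower in T87 callus (2.43e-05) and 9.67-fold lower in 2,4-D-induced callus (0.000636).

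GSTU15 (AT1G59670) and GSTU16 (AT1G59700), with 3 genes between them on chromosome 1, moved in opposite directions. GSTU15 was above background in seedlings in replicate 2, at -4.82, and on no other seedling array. It stood at -2.43, -3.13 and -3.18 on the T87 arrays and -2.80, -3.29 and -3.33 on the 2,4-D arrays, all above the seedlings, and was called higher in both (log2 changes 4.42 and 4.20, adjusted p = 0.00444 and 0.00632). With the dim seedling arrays at the lowest signal well above background these were 7.74-fold and 6.62-fold. Without seedling replicate 2 these were 5.68 and 5.45, and without seedling replicate 3 they were 3.74 and 3.51. In 35S:WIND1 callus it was above background in replicates 2 and 3, at -4.37 and -3.98, and was not called (log2 change 2.05). It was called there without 35S:WIND1 callus replicate 1 (3.16), without seedling replicate 2 (3.31) and in the deposited values (2.54). GSTU16 fell from 2.20, 2.17 and 1.91 in seedlings to 0.02, -0.83 and -1.58 on the T87 arrays and 0.75, 0.17 and -0.19 on the 2,4-D arrays (log2 changes -2.89 and -1.85, adjusted p = 0.000503 and 0.0079). With median scaling the second was -1.11 (adjusted p = 0.0572). GSTU16 levels in 35S:WIND1 callus were 0.96, 1.64 and 2.85 and overlapped the seedlings.

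GSTU17 (AT1G10370) and GSTU18 (AT1G10360) are direct neighbours on chromosome 1, and both were very low in 2,4-D-induced callus. GSTU17, also known as ERD9, acts in light signalling and drought responses. GSTU17 levels were 3.63, 3.80 and 3.44 in seedlings, 2.33, 1.97 and 3.096 on the 35S:WIND1 arrays, 1.31, 1.40 and 1.26 on the T87 arrays and -5.03, -4.78 and -3.70 on the 2,4-D arrays. The 4 groups did not overlap. It fell 279-fold in 2,4-D-induced callus (log2 change -8.13, SE 0.35, adjusted p = 6.45e-08) and 4.92-fold in T87 callus (adjusted p = 0.000219). Its fall of 2.23-fold in 35S:WIND1 callus (log2 change -1.16, adjusted p = 0.019) ended without seedling replicate 2 (adjusted p = 0.0623), without 35S:WIND1 callus replicate 2 (-0.91, adjusted p = 0.0687), with median scaling (-0.73) and in the authors' deposited values (-0.67). GSTU18 stood at 2.73, 2.84 and 2.81 in seedlings and 2.54, 2.09 and 2.28 on the T87 arrays. It was at -0.88, 0.22 and -0.09 on the 35S:WIND1 arrays and at -4.48, -4.10 and -4.65 on the 2,4-D arrays. GSTU18 fell 147-fold in 2,4-D-induced callus (log2 change -7.20, SE 0.26, adjusted p = 2.62e-08) and 8.27-fold in 35S:WIND1 callus (adjusted p = 1.07e-05), and was not called in T87 callus. Both genes were thus measured on all 12 arrays and set 2,4-D-induced callus apart from the other groups. The summed mesophyll markers, given above, were also lowest in 2,4-D-induced callus, while those of root and epidermis were lowest in T87 callus. The part of such tissue differences in these falls was not tested.

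GSTU24, GSTU25 and GSTU26 (AT1G17170, AT1G17180 and AT1G17190) adjoin on chromosome 1, and all 3 fell in T87 callus. GSTU24 and GSTU25 are known for conjugating the explosive TNT. GSTU24 fell 5.61-fold in T87 callus, to -0.31, -0.99 and -1.41 from 1.76, 0.87 and 2.12 in seedlings (adjusted p = 0.00136). It was not called in 35S:WIND1 callus (1.31, 2.85 and 1.72) or 2,4-D-induced callus (1.26, 1.84 and 2.63). GSTU25 fell 30.4-fold in T87 callus, to -2.57, -4.10 and -4.50 from 1.67, -0.36 and 2.31 (log2 change -4.93, adjusted p = 0.000406, or -5.71 without seedling replicate 2), and again was called in neither other callus. GSTU26 was above background on no T87 array and was at least 85.5-fold lower there than in seedlings (adjusted p = 8.42e-08), where it stood at -0.05, -0.38 and -0.26. It fell 11.5-fold in 35S:WIND1 callus, to -4.69, -3.86 and -2.71 (adjusted p = 7.19e-05). In 2,4-D-induced callus, at -1.68, -1.31 and -0.94, the fall was 2.11-fold (log2 change -1.08, adjusted p = 0.0387). That call ended with median scaling (-0.34) and without seedling replicate 1, 2 or 3, T87 callus replicate 2 or 3, or 2,4-D-induced callus replicate 1 or 2 (adjusted p 0.0512 to 0.121).

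Among the tau genes with no tandem neighbour, GSTU27 (AT3G43800) rose in 35S:WIND1 callus and fell in the auxin-grown calli. Its levels were 1.67, 1.47 and 1.64 in seedlings, 2.32, 3.44 and 3.78 on the 35S:WIND1 arrays, -1.60, -3.43 and -2.22 on the T87 arrays and 0.66, 0.23 and 0.16 on the 2,4-D arrays. The 4 groups did not overlap. The rise was 3.01-fold (log2 change 1.59, SE 0.46, adjusted p = 0.0157, or 0.0523 without 35S:WIND1 callus replicate 3), and the fall in T87 callus was 16.1-fold (adjusted p = 3.12e-05). In 2,4-D-induced callus the fall of 2.36-fold (adjusted p = 0.0364) ended with the replicate block (0.0527), with median scaling (log2 change -0.50), and without seedling replicate 1, 2 or 3 or 2,4-D-induced callus replicate 2 or 3 (0.0648 to 0.0934).

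GSTU28 (AT1G53680) fell in each callus with little spread, from -1.59, -1.80 and -1.67 in seedlings to -4.60, -3.74 and -4.33 on the 35S:WIND1 arrays, -4.65, -4.54 and -4.44 on the T87 arrays and -5.35, -5.08 and -5.01 on the 2,4-D arrays. These are log2 changes of -2.54, -2.86 and -3.46 (adjusted p = 6.3e-06, 1.05e-06 and 3.42e-07). GSTU8 (AT3G09270) also fell in each, 4.17-fold, 4.87-fold and 10.5-fold (adjusted p = 0.0188, 0.00801 and 0.000828). Its 35S:WIND1 arrays spread from -1.42 to 1.43, and the log2 change of -2.06 became -1.24 without replicate 1 and -2.67 without replicate 2, and was not called without seedling replicate 3 (adjusted p = 0.0607) or in the deposited values (0.0686). In T87 callus the fall of GSTU8 was not called with median scaling (-1.41, adjusted p = 0.0565). GSTU9 (AT5G62480) rose 2.42-fold in 35S:WIND1 callus, to 1.64, 1.82 and 1.91 from 0.62, 0.10 and 0.81 (adjusted p = 0.00516), and was not called in the others, except in T87 callus with median scaling (log2 change 1.49). GSTU10 (AT1G74590) was called in none, with log2 changes of 1.31, 0.15 and 1.26 (adjusted p = 0.0688, 0.824 and 0.0655). In 35S:WIND1 callus it was called higher without replicate 1 (2.09, adjusted p = 0.000338), with median scaling (1.74) and in the deposited values (1.80). In 2,4-D-induced callus it was called higher with quantile normalization (1.40), with median scaling (2.01), without seedling replicate 3 (1.59) and without 35S:WIND1 callus replicate 1 (1.26, adjusted p = 0.00174).

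**Figure D4:**
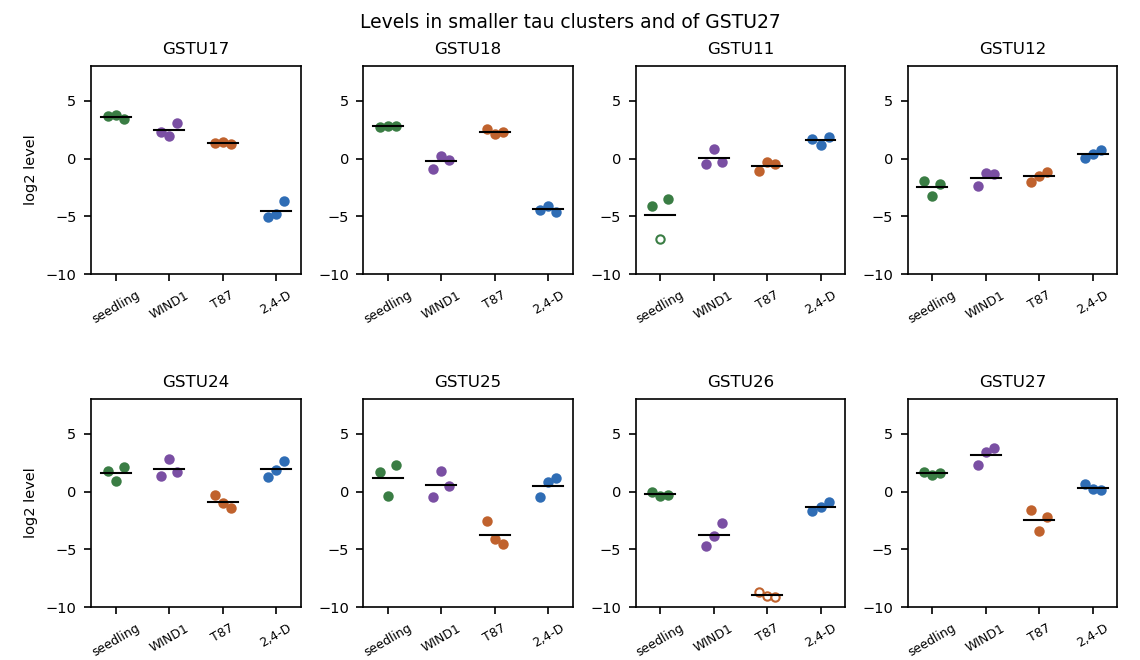
Log2 level (vertical axis, relative to the 75th percentile of each array) of 3 smaller tau groups and GSTU27 in the 4 groups of samples, with 1 point per array, a bar at the mean and open points for signals not well above background. GSTU17 and GSTU18 are below -3.5 in 2,4-D-induced callus alone, and GSTU26 has 3 open points in T87 callus.

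Several phi genes fell below the measurable range in callus. GSTF11 (AT3G03190), which belongs to aliphatic glucosinolate synthesis, stood at 0.78, 0.99 and 0.52 in seedlings and -2.58, -1.11 and -1.06 on the 35S:WIND1 arrays, and was above background on no array of T87 or 2,4-D-induced callus. It was 5.08-fold lower in 35S:WIND1 callus (adjusted p = 0.00173), at least 170.1-fold lower in T87 callus (8.63e-08) and at least 149.6-fold lower in 2,4-D-induced callus (1.65e-07). GSTF14 (AT1G49860) was well above background in seedlings, at 0.28, -0.41 and 0.39, on no array of 35S:WIND1 callus, and in replicate 3 alone of T87 callus (-6.26) and 2,4-D-induced callus (-6.49). It was at least 108-fold lower in 35S:WIND1 callus (adjusted p = 1.67e-05), and lower in T87 and 2,4-D-induced callus too (8.43e-06 and 1.32e-05). With the dim arrays of those groups at the lowest signal well above background, these differences were 94.4-fold and 86.3-fold. The fitted log2 change in T87 callus was -8.05, or -8.90 without its replicate 3. GSTF4 (AT1G02950) and GSTF13 (AT3G62760) were above background on no T87 array and at least 19.4-fold and 9.47-fold lower there than in seedlings (adjusted p = 3.45e-06 and 1.26e-06). GSTF13 was also lower in 2,4-D-induced callus, where it was above background on 1 of 3 arrays (7.54-fold, adjusted p = 4.26e-05), and GSTF4 was not called there.

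GSTF4 in 35S:WIND1 callus rested on few arrays. Its levels were -4.81, -2.63 and -4.58 against -2.07, -2.74 and -2.29 in seedlings, so the groups overlapped. The log2 change of -1.64 (adjusted p = 0.0186) was -2.33 without 35S:WIND1 callus replicate 2. The call ended without 35S:WIND1 callus replicate 1 or 3, without seedling replicate 1 or 3 (adjusted p 0.0506 to 0.0638), with median scaling (0.05004) and in the deposited values (0.130).

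GSTF8 (AT2G47730), whose promoter holds a stress-responsive ocs element, fell in each callus. It stood at 2.51, 2.50 and 2.41 in seedlings, 0.51, 0.57 and 1.26 on the 35S:WIND1 arrays, -0.70, -0.63 and -0.52 on the T87 arrays and -0.51, -0.35 and -0.34 on the 2,4-D arrays. The calli lay below the seedlings without overlap. The falls were 3.23-fold, 8.49-fold and 7.31-fold (log2 changes -1.69, -3.09 and -2.87, SE 0.18, adjusted p = 4.24e-05, 3.38e-07 and 5.93e-07).

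GSTF9 (AT2G30860) and GSTF10 (AT2G30870), direct neighbours on chromosome 2 linked to indolic glucosinolates, both fell in T87 callus. GSTF9 went from 5.95, 6.18 and 5.91 in seedlings to 2.19, 1.94 and 2.40 on the T87 arrays, a fall of 14.2-fold (log2 change -3.83, SE 0.27, adjusted p = 1.1e-06). In 2,4-D-induced callus GSTF9 fell by 1.46 on the log2 scale, to 4.33, 4.56 and 4.76 (adjusted p = 0.000856), but by 0.97 after quantile normalization and 0.71 with median scaling, under 2-fold. It was not called in 35S:WIND1 callus (4.60, 5.80 and 5.35) except without its replicate 2 (log2 change -1.04). GSTF10, also called ERD13, fell 2.94-fold in T87 callus, from 4.35, 4.34 and 4.36 to 2.72, 2.57 and 3.104 (log2 change -1.55, SE 0.15, adjusted p = 9.34e-06, or -0.69 with median scaling). Its changes in 35S:WIND1 callus (5.10, 4.76 and 5.03) and 2,4-D-induced callus (4.13, 4.27 and 4.35) were under 2-fold, but it was called higher in 35S:WIND1 callus with median scaling (log2 change 1.04, adjusted p = 0.000516) and in the deposited values (1.10, adjusted p = 0.00396).

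GSTF2 (AT4G02520), which binds auxin and camalexin, fell 5.32-fold in T87 callus, to 1.57, 1.58 and 1.45 from 4.24, 3.55 and 4.04 (adjusted p = 0.000265). It was not called in 2,4-D-induced callus (4.72, 4.78 and 4.75), where every array lay above the seedlings and where quantile normalization and median scaling gave a call (log2 changes 1.07 and 1.55, against 0.81), or in 35S:WIND1 callus (2.78, 3.95 and 4.64). The closely similar GSTF3 (AT2G02930) gave the 1 phi rise, 3.20-fold in 2,4-D-induced callus, to 2.05, 2.06 and 1.41 from 0.53, -0.05 and 0.01 (log2 change 1.68, adjusted p = 0.00432). Median scaling also called GSTF3 higher in T87 callus (1.40, against 0.53). GSTF2 and GSTF3, and likewise GSTF6 and GSTF7, are near-identical copies, so each probe may read both, and their values are uncertain in that respect. GSTF6 (AT1G02930), which acts in camalexin synthesis, and GSTF7 (AT1G02920) were called in no comparison with seedlings. On the 35S:WIND1 arrays they spread together, GSTF6 at -0.60, 1.78 and 2.72 and GSTF7 at -1.86, 1.06 and 1.50, with replicate 1 below the seedlings and the other replicates above them. Without that replicate both were called higher, GSTF6 with a log2 change of 2.01 in place of 1.06 (adjusted p = 0.00296) and GSTF7 with 1.99 in place of 0.95 (0.00114). GSTF7 was also called higher in 2,4-D-induced callus with median scaling (1.73, adjusted p = 0.0454).

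**Figure D5:**
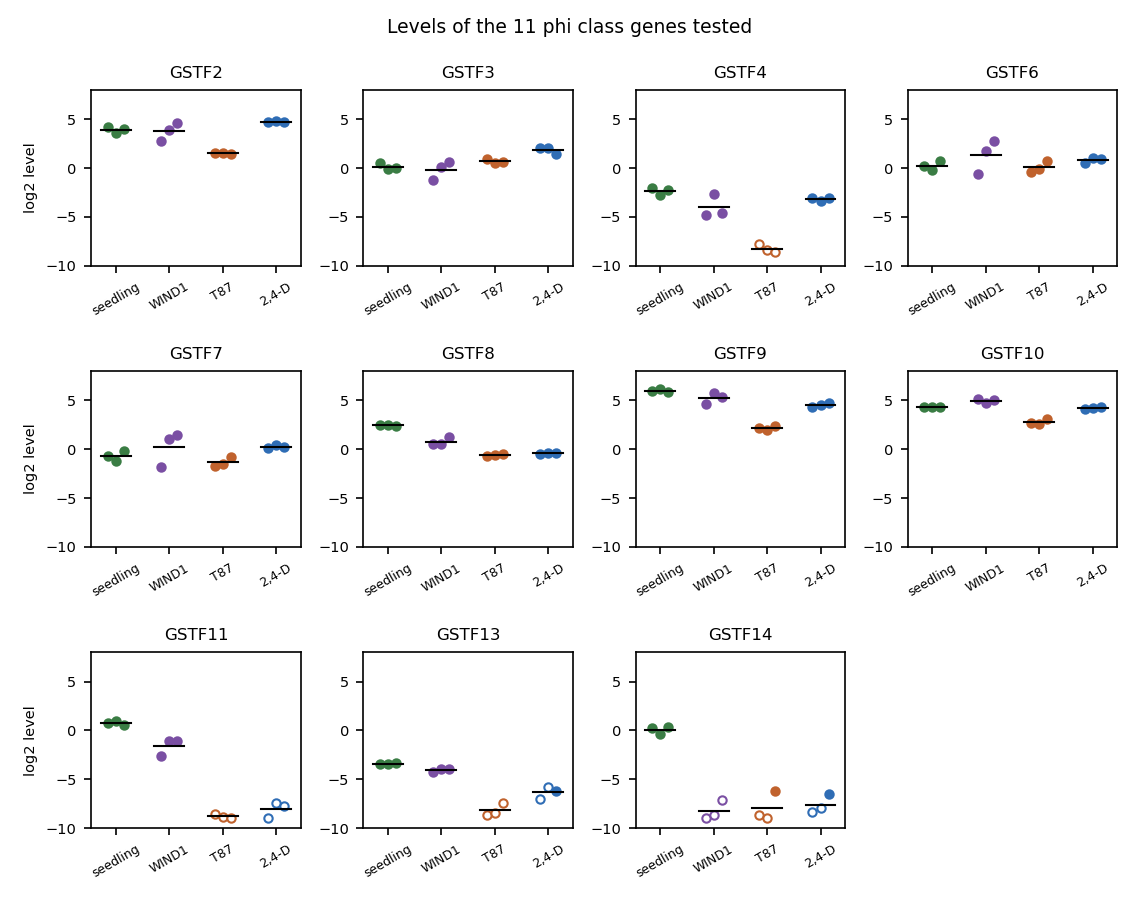
Log2 level (vertical axis, relative to the 75th percentile of each array) of the 11 phi genes tested in the 4 groups, with 1 point per array, a bar at the mean of 3 arrays and open points for signals not well above background. GSTF2, GSTF9 and GSTF10 are lowest in T87 callus on all 3 arrays, and GSTF14 is above 0 on 2 seedling arrays and below -6 in every callus.

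The calli were also set against each other. Of the 39 genes, 17 were called higher and 1 (GSTU18) lower in 35S:WIND1 than in T87 callus, where 20% and 16.8% of all genes were called. T87 callus had 5 higher and 18 lower than 2,4-D-induced callus (all genes 19.7% and 19.2%). Between 35S:WIND1 and 2,4-D-induced callus, 12 were higher and 6 lower in the former (all genes 16.8% and 11.7%). GSTU2, GSTU14, GSTU20, GSTU21, GSTU26, GSTF4, GSTF11, GSTF13 and GSTF14 entered the tests without T87 callus and so could hardly be called higher there. Likewise GSTU15 entered without 35S:WIND1 callus. GSTU20, GSTF11 and GSTF13 also entered without 2,4-D-induced callus and could hardly be called higher there than in 35S:WIND1 callus. GSTU14, GSTU21 and GSTF14 entered through the seedlings alone and passed the filter in no callus. Among the 27 genes above background on all 12 arrays, 11 were higher and 1 lower in 35S:WIND1 than in T87 callus. T87 callus then had 5 higher and 11 lower than 2,4-D-induced callus, and 35S:WIND1 callus 9 higher and 4 lower than 2,4-D-induced callus. Of all 16560 genes so filtered, 4918, 5519 and 3628 were called in either direction in these comparisons, in that order. Of the phi genes, 7 of 11 were higher in 35S:WIND1 than in T87 callus and 6 of 11 lower in T87 than in 2,4-D-induced callus. The authors' deposited values gave 26 higher and 1 lower, 5 and 15, and 16 and 6 in the order above. They called 8639, 8233 and 7566 of 21361 genes in either direction. Without 35S:WIND1 callus replicate 1 the last comparison, of 35S:WIND1 with 2,4-D-induced callus, had 18 higher and 8 lower.

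The largest differences of 35S:WIND1 from T87 callus were in GSTU20 (log2 change 9.22, 3 of 3 against 1 of 3 arrays above background, adjusted p = 1.45e-05), GSTF11 (at least 33.5-fold, 8.74e-07) and GSTU27 (48.3-fold, 5.17e-06). Leaving out 35S:WIND1 callus replicate 1, T87 callus replicate 1 or T87 callus replicate 3 moved the GSTU20 value to 10.04, 10.12 or 8.32. GSTU18 was 5.88-fold lower in 35S:WIND1 callus (adjusted p = 2.1e-05). GSTU17 was 2.20-fold higher in 35S:WIND1 callus (adjusted p = 0.0179), which ended without 35S:WIND1 callus replicate 3 (log2 change 0.82) and with median scaling (0.70). A call for GSTU14 (at least 1.41-fold, adjusted p = 0.0388) rested on overlapping groups and ended with the replicate block (0.0633).

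Against 2,4-D-induced callus, 35S:WIND1 callus was higher in GSTU20 (log2 change 8.21, adjusted p = 5.06e-05, or 9.03 without 35S:WIND1 callus replicate 1), GSTU17 (125-fold, 4.69e-07) and GSTF11 (at least 29.4-fold, 3.24e-06). It was lower in GSTU2 (9.25-fold), GSTU1 (6.83-fold) and GSTU26 (5.44-fold), with adjusted p = 0.000459, 8.18e-06 and 0.00081. Some smaller calls ended when an array was left out. For GSTU16 the log2 change of 1.58 was 1.06 without 35S:WIND1 callus replicate 3, 1.54 without 2,4-D-induced callus replicate 2 and 1.36 without its replicate 3 (adjusted p = 0.0781, 0.0642 and 0.0821). GSTU22 was not called without 2,4-D-induced callus replicate 1 (log2 change 1.296, adjusted p = 0.0551). GSTF8 came under 2-fold without 35S:WIND1 callus replicate 3 (log2 change 0.94). For GSTU6 the log2 change of 2.34 was 1.34 without 35S:WIND1 callus replicate 1 and 3.01 without its replicate 3, and it was not called without 2,4-D-induced callus replicate 2 (adjusted p = 0.0585).

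T87 callus was below 2,4-D-induced callus in GSTU26 (at least 40.4-fold, adjusted p = 2.48e-07), GSTU1 (78.9-fold) and GSTU2 (68.1-fold). It was above it in GSTU18 (105-fold), GSTU17 (56.8-fold) and GSTU6 (16.1-fold), with adjusted p = 4.33e-08, 5.14e-07 and 0.000651. GSTU11 was 4.61-fold lower in T87 callus (adjusted p = 0.0289), a call that ended without T87 callus replicate 1 or 3 or 2,4-D-induced callus replicate 1 or 3 (0.0586 to 0.0861). GSTF3 was 2.21-fold lower (adjusted p = 0.0319), a call that ended with the replicate block (0.0586) and without T87 callus replicate 2 or 3 or 2,4-D-induced callus replicate 1 or 2 (0.0726 to 0.0923). GSTU9 was 2.18-fold higher, and under 2-fold without 2,4-D-induced callus replicate 1 (log2 change 0.78). GSTU14 was at least 1.79-fold lower (adjusted p = 0.0153), which ended without T87 callus replicate 1 or 3 or 2,4-D-induced callus replicate 3 (0.0559 to 0.0615). GSTU13 was called lower in T87 callus with a log2 change of -1.11. That call ended with normexp correction (-0.63), its repeat (-0.98), quantile normalization (-0.95), median scaling (-0.99) and in the deposited values (-0.97).

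The spread between replicates was wider for the median transferase than for the median gene. The median SD of the 39 was 0.77 among 35S:WIND1 arrays, 0.42 among T87 arrays, 0.32 among 2,4-D arrays and 0.25 among seedlings, against 0.36, 0.18, 0.20 and 0.11 over all genes tested. The lowest array of a group was often the same one for many of the genes. Replicate 1 of 35S:WIND1 callus was the lowest of its group for 28 of the 39 (71.8%, against 37.3% of all genes), replicate 2 of the seedlings for 26 (66.7% against 32.2%) and replicate 1 of 2,4-D-induced callus for 25 (64.1% against 41.2%). Genes are not independent replicates, and these shares carry no test.

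Genes that act with the transferases were taken from lists written beside the member list. Of 15 tested genes of the xenobiotic response, 9 rose and 6 were not called in 35S:WIND1 callus. In T87 callus 5 rose and 5 fell, and in 2,4-D-induced callus 8 rose and 5 fell. The rises were thus 60%, 33.3% and 53.3% of the list, where 12.5%, 20.9% and 18.6% of all genes rose, and the falls in the auxin-grown calli were 33.3% in each, where 26.5% and 24.2% of all genes fell. The cytochrome P450 gene CYP81D8 rose 10.4-fold, 18.3-fold and 7.99-fold in that order (adjusted p = 7.68e-05, 7.84e-06 and 9.13e-05). In T87 callus DTX1, a multidrug efflux carrier, rose 12.3-fold (8.96e-07), AER, an alkenal reductase, rose 14.1-fold (1.97e-06), and UGT74E2, a glucosyltransferase for the auxin indole-3-butyric acid, fell 11.8-fold (0.0025). CYP81D11 fell 21.8-fold in 2,4-D-induced callus (5.72e-05), with 1 of 3 arrays above background. Of 14 tested ABCC transporters, the vacuolar pumps of glutathione conjugates and their relatives, 6 rose and 1 fell in 35S:WIND1 callus, against 2 and 3 in T87 callus and 5 and 3 in 2,4-D-induced callus. The ABCC rises were 42.9%, 14.3% and 35.7% of the list and the falls 7.14%, 21.4% and 21.4%. Of all genes 12.5%, 20.9% and 18.6% rose and 19.6%, 26.5% and 24.2% fell. ABCC3 rose 10.8-fold in 35S:WIND1 callus and 3.73-fold in 2,4-D-induced callus (2.87e-06 and 5.88e-05), and ABCC6 rose 19.1-fold in 2,4-D-induced callus (8.86e-07). ABCC13 was at least 83.5-fold lower in T87 callus (1.07e-06).

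Of 10 tested genes of glutathione synthesis, reduction and turnover, 2 rose and 1 fell in 35S:WIND1 callus, against 1 and 3 in T87 callus and 1 and 2 in 2,4-D-induced callus, shares of 10% to 20% for rises and 10% to 30% for falls, beside 12.5% to 20.9% and 19.6% to 26.5% of all genes. GGCT2;1, which degrades cytosolic glutathione, rose 3.65-fold, 11.2-fold and 38.1-fold (adjusted p = 0.017, 0.00028 and 1.91e-05). Of 12 tested genes of sulfate assimilation and cysteine synthesis, 3, 6 and 4 fell in 35S:WIND1, T87 and 2,4-D-induced callus and the rest were not called (25%, 50% and 33.3%, where 19.6%, 26.5% and 24.2% of all genes fell). The ATP sulfurylase genes APS1 and APS3 fell 2.87-fold and 4.82-fold in 35S:WIND1 callus, 5.86-fold and 4.27-fold in T87 callus, and 3.17-fold and 6.61-fold in 2,4-D-induced callus.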

How the data were processed

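The scanner files that the authors deposited give linear intensity per spot, per the file headers. They came from Agilent Feature Extraction (9.1.3.1 per the submitters' processing notes), and the column used is the background-subtracted processed signal. In the authors' series table the values, set against the scanner files, were the natural log of that signal minus 1 constant per group, for an unstated reason, so it served as an alternative. A genome build was not given in the labels or headers, no coordinate or sequence is printed, and gene order comes from a reference table of assembly TAIR10.1, in which 38 of the 40 genes carry the same symbol.

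Groups and replicate numbers came from the sample titles. Control and outlier spots were removed, and log2 signals were taken relative to the 75th percentile of each array, which lay between 1755 and 3716 units, with 57.1% to 65.9% of spots well above background. Probes had to be well above background in all 3 replicates of some group, and each gene was read from its brightest such probe. Two-sided tests with limma 3.58.1 (R 4.3.3; lmFit, eBayes) fitted all 12 arrays together and were checked on simulated data. "At least N-fold" sets the brighter mean over, per dim array, the higher of the gene's signal and the lowest signal well above background. All members are named. For the lists, up to 3 called genes per direction and comparison qualified, of which part is given. Members and lists were chosen with earlier results of these data known.

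Same-numbered arrays lay on 1 slide, so the slide and the replicate number are the same block. Deviations from group means correlated at -0.14 to 0.12 over 18 same-numbered pairs (median 0.01), so the numbers were not taken as pairs. Alternatives were normexp correction (offset 50, on the median signal, as the mean signal was not used here), quantile normalization, median scaling, the deposited values, other filters, the mean of a gene's probes, the replicate block and leaving out each array. Normexp without spots of outlying background was added after seeing the data. The number of arrays limits the precision.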

Additional observations from a re-analysis of the deposited data

Results flagged for a closer look

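For 3 genes, kinds of callus were called in opposite directions against the seedlings, and the difference between those calli was itself called by limma. GSTU1 fell in T87 callus and rose in 2,4-D-induced callus (log2 changes -3.92 and 2.39), a difference of -6.30 (adjusted p = 2.83e-08). GSTU2 did the same (-2.22 and 3.87), with a difference of -6.09 (3.32e-06). GSTU27 rose in 35S:WIND1 callus (1.59) and fell in T87 callus (-4.01) and 2,4-D-induced callus (-1.24), with differences of 5.60 (5.17e-06) and 2.83 (0.000702). The last of these 3 calls against seedlings ended in several alternatives, given beside it above.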

How the results depend on the processing

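Of the 135 called changes of single genes, 71 kept their call in every setting run, 64 lost it in at least 1, and 0 changed sign. The planned normexp correction ended 50, and 105 kept their call in all other settings. Spot minus local background reached -64665.5 units on 1 array, and the 10th percentile after correction ranged from 68.3 to 1831 units over arrays, against 64.5 to 71.5 without such spots. In that repeat 4 calls ended. Of the 99 changes not called, 50 were called in at least 1 setting, 23 of them without 35S:WIND1 callus replicate 1, 18 with median scaling, 17 in the deposited values and 9 with quantile normalization. Normexp called 11 members in 35S:WIND1 callus and 18 in T87 callus against seedlings, 11 between 35S:WIND1 and 2,4-D-induced callus and 15 between T87 and 2,4-D-induced callus, in place of 21, 28, 18 and 23. The filter on all 12 arrays, which left 27 members, called 12, 16 and 16 in 35S:WIND1, T87 and 2,4-D-induced callus against seedlings. Leaving out 1 array gave 16 to 23, 27 to 30 and 25 to 28 called members in these comparisons. It gave 17 to 22 between 35S:WIND1 and T87 callus, 16 to 26 between 35S:WIND1 and 2,4-D-induced callus and 20 to 26 between T87 and 2,4-D-induced callus. It also moved 23 called changes by over 1.5 times with 1 array or another. Median scaling gave 14 higher and 4 lower between 35S:WIND1 and T87 callus, 11 and 10 between 35S:WIND1 and 2,4-D-induced callus, and 5 and 17 between T87 and 2,4-D-induced callus. It called 9256, 7018 and 8353 of the 21357 genes tested in these comparisons, in either direction. The deposited values gave 11 higher and 11 lower in 35S:WIND1 callus against seedlings, and quantile normalization 12 and 17 in 2,4-D-induced callus. With the replicate number as a block, 6 rose and 13 fell in 35S:WIND1 callus, 5 and 22 in T87 callus and 9 and 17 in 2,4-D-induced callus. The block ended 6 calls, each given above, and changed no other call of the 135. Genes not well above background have bounds and no order.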

Other observations

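Of 13 tested glutathione transferases outside the tau and phi lists, 2 rose and 2 fell in 35S:WIND1 callus, 4 rose and 2 fell in T87 callus, and 5 rose and 5 fell in 2,4-D-induced callus. The rises were 15.4%, 30.8% and 38.5% of these genes and the falls 15.4%, 15.4% and 38.5%, where 12.5%, 20.9% and 18.6% of all genes rose and 19.6%, 26.5% and 24.2% fell. GSTF12, the phi enzyme TT19 that carries flavonoids to the vacuole and stands outside the list described above, fell 60.5-fold in T87 callus (limma adjusted p = 2.86e-05) and was at least 68.3-fold lower in 2,4-D-induced callus (3.11e-06). The dehydroascorbate reductase gene DHAR3, of the chloroplast enzyme, fell 4.47-fold in 35S:WIND1 callus and 4.94-fold in 2,4-D-induced callus (1.29e-06 and 2.84e-07). DHAR1 rose 2.38-fold in 35S:WIND1 callus and fell 2.94-fold in 2,4-D-induced callus (0.000617 and 8.35e-05). The lambda gene GSTL1 rose 6.71-fold in 2,4-D-induced callus (0.00035).

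Of 10 tested TGA factor and SCL14 genes, which bind or act at the as-1 and ocs elements of transferase promoters, 2 rose and 1 fell in 35S:WIND1 callus, 2 rose and 2 fell in T87 callus, and 4 rose and 1 fell in 2,4-D-induced callus. These are rises of 20%, 20% and 40% and falls of 10%, 20% and 10% of the list. Of all genes 12.5%, 20.9% and 18.6% rose and 19.6%, 26.5% and 24.2% fell. SCL14, a coactivator of detoxification genes, rose 2.18-fold in 35S:WIND1 callus and 3.02-fold in 2,4-D-induced callus (adjusted p = 0.00572 and 0.00103). TGA7 rose 3.42-fold and 4.60-fold in the same calli (0.00225 and 0.00036). TGA10 was at least 20.9-fold lower in 35S:WIND1 callus (9.8e-06), and also had the lowest fitted log2 change of the list in 2,4-D-induced callus (-4.39). TGA1 and TGA4 fell 3.16-fold and 3.08-fold in T87 callus (0.000154 and 7.66e-07).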
